A study of Mus musculus with 20 samples.

Results

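CTCF binding was compared between untreated and auxin-treated Maz knockout mouse embryonic stem cells (mESCs) that carry a CTCF degron. The cells were of the E14 line and were grown with LIF and 2 inhibitors (2i, blocking MEK1/2 and GSK3). In each group used here CTCF carried an auxin-inducible degron, through which auxin directs the protein to degradation. ΔMAZ is the untreated Maz knockout, and ΔCTCF/ΔMAZ is the same knockout after 2 days of auxin. WT and ΔCTCF are the degron cells with intact Maz, without and with auxin. The study describes its Maz knockout degron cells as clones, the titles of both Maz knockout groups carry the tag B2, and each group had 1 deposited CTCF peak list. The 2 lists held 28623 of the 136043 peaks in the 12 lists of the series (20 samples), 26053 in ΔMAZ and 2570 in ΔCTCF/ΔMAZ.

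A ΔMAZ peak that shared at least 1 bp with a ΔCTCF/ΔMAZ peak was taken as a residual site, and the other ΔMAZ peaks were taken as lost. A ΔCTCF/ΔMAZ peak with no ΔMAZ peak under it was taken as gained. Of the 26053 ΔMAZ peaks, 2533 were residual (9.72%, 95% Wilson interval 9.37 to 10.1) and 23520 were lost. Of the 2570 ΔCTCF/ΔMAZ peaks, 32 were gained (1.25%, 0.883 to 1.75). The gained share depended on the rule, at 24.2% when peaks had to overlap by 50% of each other and 48.4% when each list was cut to its 2570 strongest peaks. These intervals cover counting error over peaks only. With 1 list on each side the spread between replicates was not measured, and no p-value is given. The lists carry no read totals, so the depth of each library is unknown. A lost site is one at which no peak was called, which is not the same as a site without CTCF.

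CTCF is a zinc-finger protein that binds a long asymmetric DNA motif, and it is known as the main factor that stops loop-extruding cohesin on chromosomes. RAD21 is a core subunit of cohesin and therefore marks where cohesin rests. MAZ is another zinc-finger protein, which binds G-rich sequence and is studied as a partner of CTCF in insulation. Peak lists hold no expression values, so neither the stem cell identity nor the loss of CTCF protein could be checked in them. The MAZ antibody gave 6265 peaks in WT, 33 in ΔMAZ and 33 in ΔCTCF/ΔMAZ.

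The CTCF motif was read from the WT summits and had the consensus ttggCCACcAGGgGGCgcta over 20 bases, where capitals mark the 10 bases present in at least 60% of the aligned sites. A site was counted as carrying the motif when the best match within 50 bp of its summit, on either strand, reached a score that 1% of windows lying 1 kb beside WT summits reach. That limit was a score of 10.9. The sequences below (mm10, read 5′ to 3′ along the motif, or along the plus strand where no motif was found) show sites that kept strong CTCF peaks after auxin, sites that were strong and lost, and a gained site, with the motif in capitals. They are some of the sites taken by the rule that names the strongest sites of each class, leaving out promoters and untranslated exons.

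Residual, intergenic, nearest gene Gm5533, chr1:181888932-181888991, plus strand: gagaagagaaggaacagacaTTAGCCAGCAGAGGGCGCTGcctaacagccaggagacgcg

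Residual without the motif, intergenic, nearest gene Srp14, chr2:118487096-118487155, plus strand: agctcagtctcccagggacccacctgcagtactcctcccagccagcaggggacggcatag

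Lost, intron of Iffo2 and Gm21969, chr4:139611862-139611921, plus strand: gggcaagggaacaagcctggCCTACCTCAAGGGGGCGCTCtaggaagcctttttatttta

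Lost, intergenic, nearest gene Gbx1, chr5:24530239-24530298, minus strand: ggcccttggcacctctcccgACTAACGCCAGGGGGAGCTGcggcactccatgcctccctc

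Gained, intergenic, nearest gene Hsd17b6, chr10:127970974-127971033, plus strand: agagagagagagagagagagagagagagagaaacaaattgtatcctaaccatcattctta

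Both classes held sites with and without the motif. The residual Gm5533 site matched the consensus at 16 of 20 bases, the lost Gm21969 site at 13 and the lost Gbx1 site at 12. The best match stayed under the limit at the residual sites near Srp14 (score 9.06), Arid3a (0.550) and Rap1gap (9.23) and at the lost site near Ndufa4l2 (10.2). The gained sequence shown includes a stretch of simple repeat that the genome assembly marks as masked.

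Residual sites were much stronger before auxin than lost sites. Strength is the fold enrichment of the summit over its local background in the same library. The median fold enrichment before auxin was 29.1 at residual sites (quartiles 22.9 and 36.0) and 11.1 at lost sites (quartiles 7.11 and 17.6). In reads, the summit pileup had a median of 44 at residual sites and 16 at lost ones. When the ΔMAZ peaks were split into 10 equal groups by strength, 51.3% of the strongest group was residual (49.4 to 53.2), 24.5% of the next, 11.6% of the one after it, and between 0.269% and 4.64% of groups 2 to 7. The weakest group was above its neighbours at 1.07%. The strongest group alone held 52.8% of all residual sites. Of the 10 strongest ΔMAZ peaks 9 were residual, of the 100 strongest 79, and of the 1000 strongest 651, so that a high rank did not ensure a peak after auxin.

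**Figure D1:**
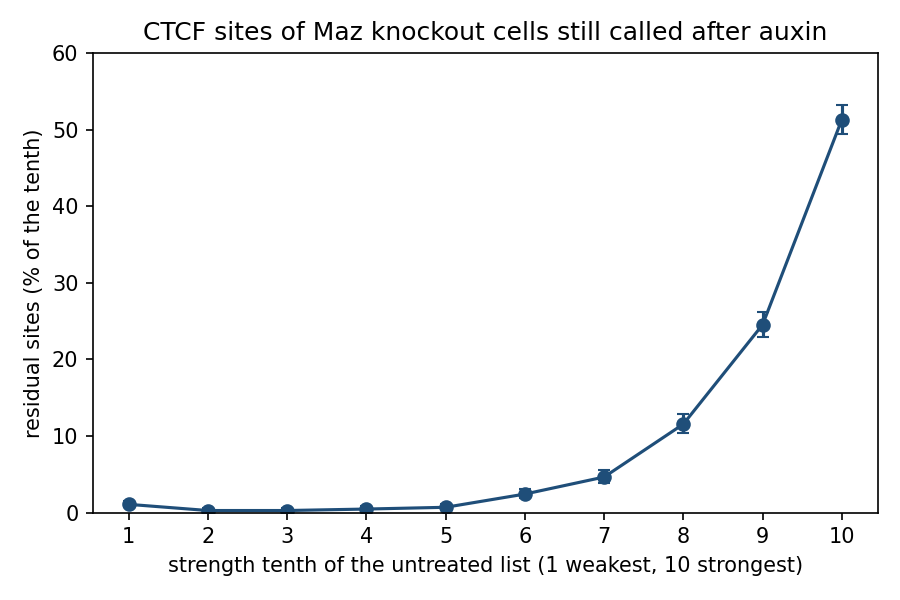
Share of ΔMAZ CTCF peaks that were still called after auxin (%, y axis) in 10 equal groups of fold enrichment before auxin (x axis); bars are 95% Wilson intervals. The share is 0.269% in groups 2 and 3, 51.3% in group 10 and 1.07% in group 1.

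Residual sites had lower fold enrichments and narrower peaks in the auxin list than in the untreated one. Each fold enrichment is relative to its own library and no common scale was available, so these are differences between 2 lists and not a measure of CTCF lost per site. Over the 2522 sites where 1 peak met 1 peak, the median fold enrichment was 29.1 in ΔMAZ and 8.66 in ΔCTCF/ΔMAZ. The median ratio of auxin to untreated fold enrichment was 0.318 (quartiles 0.249 and 0.416). Of the 2522 sites, 2508 had a lower value after auxin. Sites were paired only where an auxin peak was called, so sites whose auxin signal stayed under the calling limit have no ratio. The median summit pileup was 44 reads before and 14 reads after auxin, in libraries of unknown depth. The lowest local background in a list was 0.444 reads before and 0.593 reads after auxin. Peaks were narrower after auxin at 2474 of the 2522 sites, with a median width of 358 bp before and 215 bp after. The summits lay a median of 19 bp apart, and 90.3% lay within 50 bp of each other. The strength before and after auxin had a Spearman correlation of 0.406 across the 2522 sites, given as a description since sites of 1 library share its depth. It covers only sites with a called auxin peak, as do the ratio and the summit distances. With these sites split into 5 groups by untreated fold enrichment, the median ratio was 0.437 for the lowest group and 0.250 for the highest. The median auxin fold enrichment of these 2 groups was 7.48 and 11.3, against 18.1 and 43.6 untreated.

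**Figure D2:**
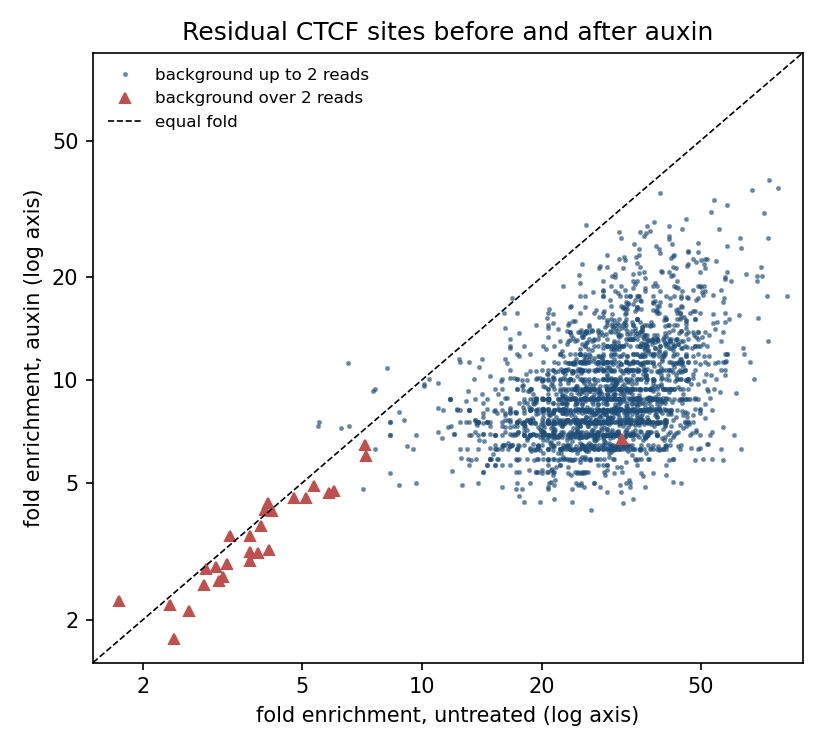
Fold enrichment of the 2522 residual sites with 1 peak in each list, before (x axis) and after auxin (y axis), both on log axes; triangles are sites whose local background before auxin was over 2 reads and the dashed line marks equal values. All but 14 sites lie on or below the line, and the triangles lie near it at low fold enrichment, with 1 exception.

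Of the 5 residual sites of highest fold enrichment after auxin 4 are described here, and nothing is drawn from them about the 5 as a group. An intergenic site 46607 bp from the start of Lbr, which encodes the lamin B receptor, and nearer to Gm5533, had a fold enrichment of 74.1 in ΔMAZ and 38.3 in ΔCTCF/ΔMAZ. These genes are from the basic transcript set, and in the full set the start nearest to this site was that of Enah, 17852 bp away. A site 7415 bp from the start of Srp14, a signal recognition particle gene, went from 78.4 to 36.4. A site 1564 bp from the start of Arid3a, which encodes a DNA-binding protein, went from 67.2 to 36.0. A site in an intron of Rap1gap, a gene for a GTPase-activating protein of Rap1, went from 54.0 to 33.5.

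The 5 strongest lost sites had fold enrichments from 63.8 to 72.4 before auxin, within the range of those 4 residual sites. The strongest lay at the promoter of Kdm3b, a histone H3K9 demethylase gene, with a fold enrichment of 72.4 and a pileup of 105 reads at rank 7 of ΔMAZ. The others lay in an intron of Iffo2 and Gm21969 (70.1), at the promoter of H2-DMa, which acts in antigen loading (67.2), near Ndufa4l2 (66.7) and near the homeobox gene Gbx1 (63.8). None of the 5 had a called peak after auxin.

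Gene position separated residual from lost sites also among sites of like strength. Summits were placed at a promoter (within 1 kb of a start in the basic transcript set), otherwise in an exon, elsewhere within a gene's span (intron) or between genes. Against the full transcript set, 725 of the intronic sites lay at a promoter and 218 in an exon, and the odds ratio given below for introns was 0.523 (0.467 to 0.586). Of the 11335 intronic sites 6.28% were residual (5.85 to 6.74), and of the 11175 intergenic sites 12.2% (11.6 to 12.8). In the strongest of the 10 groups the shares were 40.8% of 830 intronic sites (37.5 to 44.2) and 60.3% of 1159 intergenic sites (57.5 to 63.1), with a median fold enrichment of 33.1 and 33.6. In group 9 they were 19.6% and 30.6%, and in group 8 they were 8.36% and 15.99%. Over the 10 groups the Mantel-Haenszel odds ratio of being residual was 0.515 (0.461 to 0.575) for an intronic against an intergenic site. Among sites with an unmasked summit and the motif it was 0.497 (0.435 to 0.569), and among sites with a RAD21 peak in ΔMAZ it was 0.529 (0.473 to 0.592).

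Within introns, the sites in protein-coding genes were less often residual (5.90% of 10240) than those in other genes (9.86% of 1095), with an odds ratio over the strength groups of 0.617 (0.480 to 0.792). The length of the host gene (over or under 100 kb) and the strand of the motif relative to the gene had odds ratios of 1.04 (0.869 to 1.23) and 0.928 (0.764 to 1.13), both with intervals that hold 1. 

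Promoter sites were more often residual at first sight, but not among sites of like strength when set against all other sites together. Promoters held 14.1% of residual and 8.61% of lost sites, and promoter sites were also stronger, with a median fold enrichment of 15.5 against 12.3 at sites 10 to 50 kb from a start. In the strongest group promoters held 18.4% of residual and 18.99% of lost sites, and the odds ratio over the 10 groups was 0.941 (0.815 to 1.09). Against intergenic sites alone the promoter odds ratio was 0.693 (0.595 to 0.807). Introns went the other way, with an odds ratio of 0.727 (0.620 to 0.853) for an intronic against a promoter site. The residual share was 14.99% within 1 kb of the nearest start and 3.84% beyond 200 kb, and the median fold enrichment was 15.5 and 7.75. Within the strongest group the share lay between 50.5% and 51.9% in each distance class up to 200 kb.

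**Figure D3:**
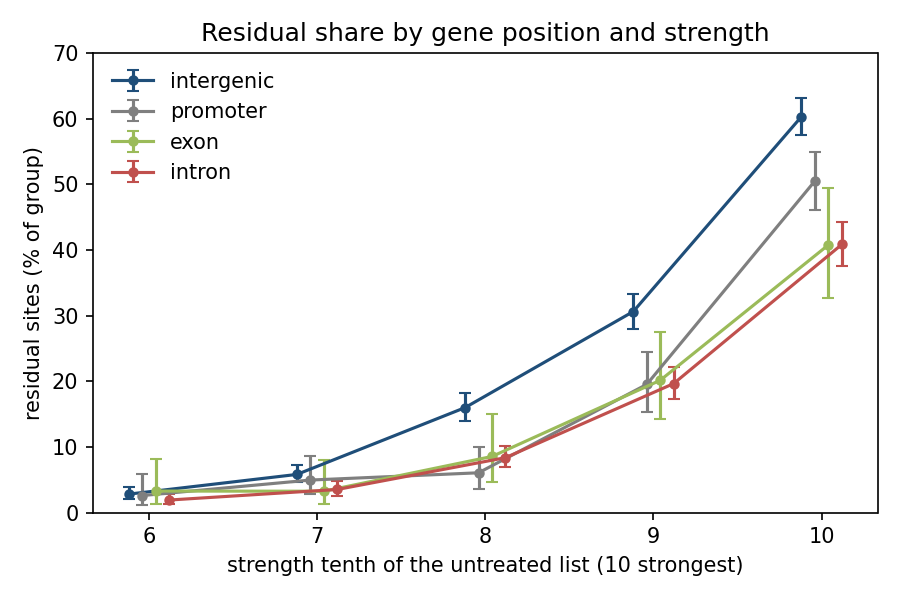
Residual share (%, y axis) of ΔMAZ CTCF sites at promoters, in exons, in introns and between genes, in strength groups 6 to 10 (x axis); bars are 95% Wilson intervals and points are shifted sideways for clarity. Intergenic sites are highest in groups 7 to 10, with 60.3% against 40.8% for introns in group 10.

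The 5 strongest residual promoters were those of Psmd6, a proteasome subunit gene (fold enrichment 73.7 in ΔMAZ and 25.9 in ΔCTCF/ΔMAZ), Vps18, a vesicle sorting gene (72.0 and 30.8), Rrp1, a ribosome processing gene (71.3 and 20.1), Erlin2 (70.6 and 21.3) and Ap4e1 (69.2 and 20.1). All 5 had a lower value in the auxin list. The 5 strongest lost promoters were those of Kdm3b and H2-DMa, given above, and of Prss48 (55.8), Vps13d (53.2) and the autophagy gene Atg101 (53.0). The lost Kdm3b promoter, at 72.4, was stronger before auxin than 4 of these 5 residual promoters.

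The CTCF motif was more common at residual sites, and match scores there were higher. It was found at 77.5% of residual (75.8 to 79.0) and 64.7% of lost sites (64.1 to 65.3). In windows beside the sites it was found in 0.983%. That value was close to set in advance, since the limit was fixed at 1% of windows beside WT summits. Over the 10 strength groups the odds ratio was 1.27 (1.13 to 1.43). With a stricter limit, reached by 0.1% of windows, the shares were 34.6% and 20.6% and the odds ratio was 1.65 (1.48 to 1.83). In the strongest group 47.4% of sites were residual in the lowest of 5 equal classes of motif score and 57.7% in the highest.

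Single motif positions differed between residual and lost sites that carry the motif. This comparison was added after first results were seen, and the bases given are only some of those compared. Of the others, T at position 20 differed as much (odds ratio over the strength groups 0.554, 0.414 to 0.740). Many others had intervals that hold 1. C at position 8 was present at 56.2% of residual and 42.7% of lost sites (odds ratio over the strength groups 1.46, 1.31 to 1.64). Not all differences ran toward the consensus. G at position 13, the consensus base, was present at 61.2% of residual and 70.8% of lost sites (0.646, 0.575 to 0.725), and T there at 36.2% and 27.1% (1.56, 1.39 to 1.76). At position 18 T, which is not the consensus base, was present at 5.86% and 15.9% (0.568, 0.455 to 0.710). The C at position 16 followed by G at position 17, the CpG inside the motif, was present at 56.4% and 38.6% (1.45, 1.30 to 1.63), and C followed by A at these positions at 32.4% and 46.8% (0.743, 0.662 to 0.835). Sites with at least 3 CpG within 50 bp of the summit were residual in 18.2% of cases and the others in 6.03%, with an odds ratio of 1.63 (1.48 to 1.80). In the strongest group these shares were 56.0% and 44.7%. A summit in masked repeat was found at 12.4% of residual and 23.4% of lost sites (odds ratio 0.826, 0.717 to 0.952).

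RAD21 peaks of the same cells, which the overlap rule did not use, lay at 96.8% of residual and 63.5% of lost sites before auxin. Among sites of like strength this gap was smaller. In the strongest group the shares before auxin were 97.9% and 94.5%, and the odds ratio over the groups was 3.60 (2.76 to 4.69). After auxin a RAD21 peak was called at 79.3% of residual (77.7 to 80.8) and 9.28% of lost sites (8.92 to 9.66), while the RAD21 lists held 20872 and 6400 peaks. In the strongest group the shares after auxin were 83.5% and 36.2%, and the odds ratio over the groups was 10.8 (9.65 to 12.2). Among the 17377 CTCF sites with RAD21 before auxin, 48.2% of those that kept a RAD21 peak were residual for CTCF and 3.44% of those that did not. MAZ peaks of WT cells lay at 3.67% of residual and 1.67% of lost sites, with an odds ratio over the strength groups of 0.929 (0.717 to 1.20). The odds ratio interval for MAZ holds 1.

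In the cells with intact Maz, 8.83% of WT peaks were residual in ΔCTCF (8.50 to 9.18). Of the residual sites of the Maz knockout, 60.8% also had a peak in ΔCTCF, against 3.39% of the lost sites. The 1541 residual sites shared with ΔCTCF had a median fold enrichment in ΔMAZ of 31.2, the 992 others 26.2, and the 798 lost sites with a ΔCTCF peak 24.2.

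**Figure D4:**
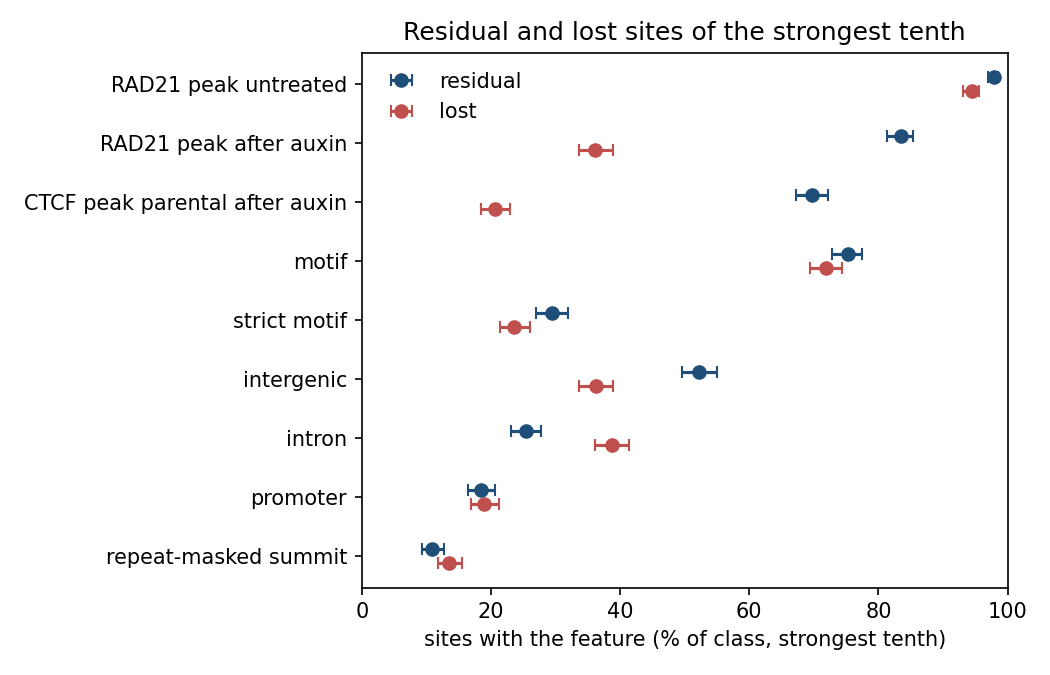
Share of residual and of lost sites (%, x axis) with each feature among the strongest of 10 groups of ΔMAZ CTCF peaks; bars are 95% Wilson intervals. RAD21 after auxin (83.5% and 36.2%) and a ΔCTCF peak of the parental cells (69.8% and 20.6%) stand farthest apart, and the intervals of promoters (18.4% and 18.99%) overlap.

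The Hox clusters, whose genes set position along the body axis and which CTCF divides into domains, held 25 CTCF sites in ΔMAZ. Of these 10 were residual (40.0%, 23.4 to 59.3), against 9.72% of all sites, with a median fold enrichment of 14.2 against 12.3. HoxA had 4 residual sites of 9, HoxB 1 of 4, HoxC 3 of 5 and HoxD 2 of 7. The strongest, 3117 bp from the nearest Hoxa7 start of the basic transcript set but 26 bp from one in the full set, had a fold enrichment of 54.0 before and 9.43 after auxin. The promoter site of Hoxb5 had 42.9 and 6.91, that of Hoxc10 had 32.5 and 10.7, and that of Hoxa5 had 23.4 and 14.6.

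Of the 10 Hox residual sites, 5 were in the strongest of 5 equal groups of ΔMAZ peaks, against 78.0% of all residual sites. A site 2984 bp from the start of Hoxc8 (21.2 before and 9.88 after auxin) and a site near Hoxd8 (19.01 and 8.81) were below that group and carried the motif and a RAD21 peak in ΔMAZ. In all, 4 of the 10 Hox residual sites carried the motif, against 77.5% of all residual sites. The residual promoter sites of Hoxb5, Hoxc10 and Hoxa5 did not carry it. A site at the Hoxc5 promoter had a fold enrichment of 7.53 before and 9.29 after auxin, and a pair of sites at the Hoxa3 promoter had 6.27 and 6.59 before and 7.24 and 7.34 after. A weak site could count as residual only with a called auxin peak, so these higher values were in part set by the rule. None of these 3 weak sites had the motif or a RAD21 peak in ΔMAZ. In an intron of Hoxa3, 1419 bp from a start, a site of fold enrichment 32.6 was lost, so strength and fate did not keep the same order within the cluster. RAD21 was called after auxin at 8 of the 10 residual and 0 of the 15 lost Hox sites (up to 20.4% by the Wilson interval), against 79.3% of all residual and 9.28% of all lost sites.

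**Figure D5:**
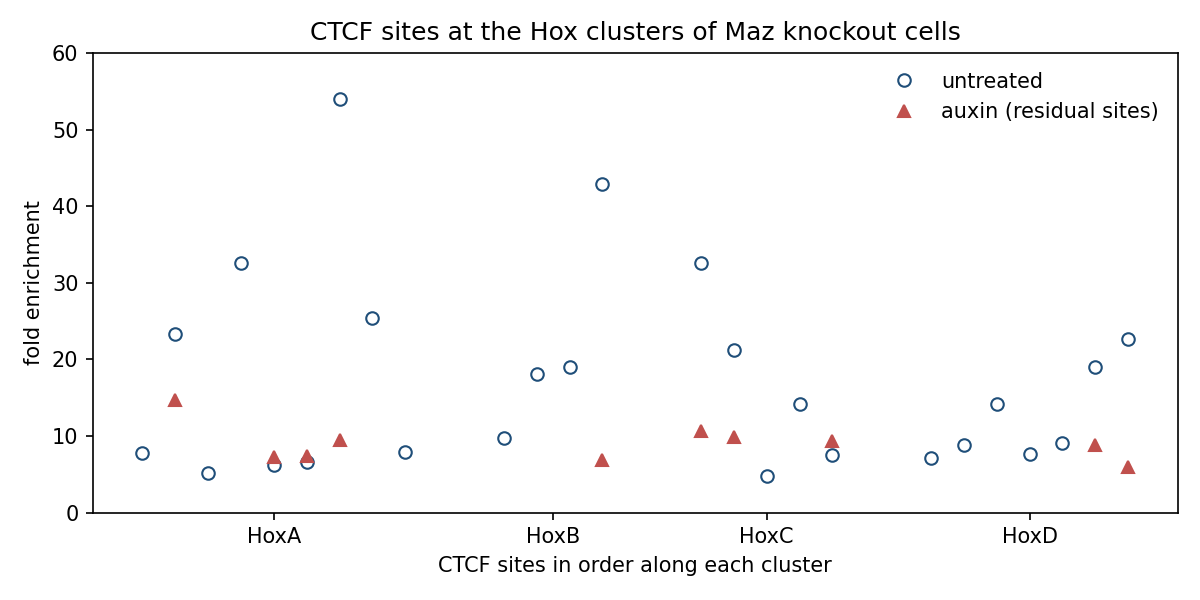
Fold enrichment (y axis) of the 25 CTCF sites at the Hox clusters in their order along each cluster (x axis), untreated (open circles) and after auxin where a peak was called (triangles). The 10 residual sites reach 5.95 to 14.6 after auxin, and 3 of them lie above their untreated value. These 3 were weak before auxin, and a weak site counts as residual only where an auxin peak was called.

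At the clustered protocadherins, cell-surface genes whose promoter choice depends on CTCF, 4 of 43 sites were residual (9.30%, 3.68 to 21.6), a share near the 9.72% of all sites. All 4 lay in the gamma cluster, which had 18 sites with a median fold enrichment of 23.2, and none lay among the 10 alpha sites (median 9.35) and 15 beta sites (10.4). The residual ones near Pcdhgb7, Pcdhgb6, Pcdhgb5 and Pcdhga8 had 53.0, 37.4, 35.0 and 18.1 before and 31.0, 9.42, 8.16 and 7.38 after auxin. At imprinted genes, which are expressed from 1 parental copy, 4 of 33 sites were residual (12.1%, 4.82 to 27.3, an interval that holds 9.72%), near Phlda2 (58.2 before and 11.9 after), Usp29 (27.7 and 13.2), Trappc9 (28.4 and 6.91) and Meg3 (16.5 and 7.66).

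At the pluripotency factors, the regulators of the stem cell state, 0 of 15 sites were residual (up to 20.4%, against 9.72% of all sites), with a median fold enrichment of 15.2. The strongest of them was an Esrrb intron site with a fold enrichment of 27.4, followed by a site near Pou5f1 (25.5), a site 7224 bp from Dppa3 (20.9) and a site near Sox2 (17.8). At the X inactivation centre 0 of 4 sites were residual (up to 49.0%). At the cytosolic ribosomal protein genes 7 of 68 sites were residual (10.3%, 5.08 to 19.8, near the 9.72% of all sites), near Rpl26 (57.5 and 11.3), Rpl36 (54.4 and 14.1), Rpl5, Rplp0, Rpl19, Rpl35 and Rps24. Among developmental genes under long-range control 1 of 21 sites was residual (4.76%, 0.846 to 22.7, an interval that holds 9.72%), at Epha4, which encodes an ephrin receptor (38.8 and 8.79).

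The genes of cohesin and its regulators had 9 residual sites of 29 (31.0%, 17.3 to 49.2, against 9.72% of all sites), but 5 of the 9 lay inside the gene Ctcf itself. Without it 4 of 19 sites were residual (21.1%, 8.51 to 43.3), an interval that holds 9.72%. The 4 were 3 at Ctcfl, the testis paralog of Ctcf (30.4, 17.3 and 12.1 before and 10.6, 11.9 and 6.95 after auxin), and 1 at the promoter of the cohesin regulator Pds5b (24.2 and 8.49). Ctcf (chr8:105636568-105682922, plus strand) has 10 coding exons in the annotation. In ΔMAZ 10 CTCF peaks had their summit in the gene, 9 of these in a coding exon, and 9 coding exons held a peak. In ΔCTCF/ΔMAZ 6 peaks lay in the gene, all with the summit in a coding exon, at fold enrichments from 6.28 to 15.7. None of these peaks had the motif.

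The same exons were marked in other libraries of the series. The WT list had 8 Ctcf coding exons with a peak and the ΔCTCF list all 10, the RAD21 lists of ΔMAZ and ΔCTCF/ΔMAZ had 4 and 3, and the MAZ antibody lists of these groups 0. Only 49 ΔCTCF/ΔMAZ peaks had their summit in any coding exon, in 44 genes, and Ctcf was the only gene with at least 3. Maz had 2, with fold enrichments of 4.81 and 5.31, and 1 of 17 sites at the genes for GC-box zinc-finger proteins was residual (5.88%, 1.05 to 27.0, against 9.72% of all sites), in a coding exon of Maz. Whether the peaks on these coding exons, counted here as residual, lost or gained, reflect CTCF bound at the gene was not tested.

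A few residual sites had a higher value in the auxin list. Of the 2522 sites with 1 peak in each list, 14 had a higher fold enrichment after auxin, and only 1 of these, in an intron of Bpifc and nearest to the start of Rtcb (16.9 and 17.3), had the motif. The strongest of the 14 was at the promoter of Kmt2a, which encodes a histone H3K4 methyltransferase, with 25.8 before and 28.3 after auxin and pileups of 39 and 47 reads. An intergenic site nearest to Gm47677 had 6.53 and 11.2, and the promoter of Snx12 had 5.54 and 7.53. These genes were named after their values were seen. Differences of this size between 1 list on each side, on no common scale, have no replicate check. A site weak before auxin could enter only with a called auxin peak. Higher values at such sites were in part set by this selection. The 5th percentile of auxin fold enrichment over the 2522 sites was 5.65.

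The weakest residual sites lay mostly in regions of high local background. Of the 28 residual sites in the weakest strength group, 26 had a background over 2 reads, against 16 of the 2577 lost sites of that group. In all, 54 ΔMAZ peaks had such a background and 31 of them were residual (57.4%, 44.2 to 69.7). The 5 weakest residual sites were 2 at Gm26917 (fold enrichment 1.74 and 2.33 in ΔMAZ), 1 at AY036118 (2.39), 1 at Gm21738 (2.24) and 1 in an intron of Cdk5rap2 (2.61). They had 49 to 64 reads over backgrounds of 21.6 to 27.7 reads, and none had the motif. Of the sites that also carry a peak of the MAZ antibody in cells without MAZ, 22 were residual and 3 were lost.

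With those sites set aside, 42 residual sites were left in the weaker 5 of the 10 strength groups. They carried the motif in 18 cases (42.9%, 29.1 to 57.8), against 56.5% of the lost sites of these groups. They had a peak in ΔCTCF in 20 cases (47.6%), against 0.286%, and a MAZ peak in WT in 11 (26.2%, 15.3 to 41.1), against 1.05%. They included the promoters of Ddx17 and Hnrnpa2b1, both genes of RNA-binding proteins, with fold enrichments of 10.1 before auxin, an intergenic site nearest to Firre (11.8), the Hoxa3 and Hoxc5 promoter sites above, and 3 of the 5 residual sites in Ctcf.

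The 32 sites gained by the rule of 1 bp were weak and lacked the CTCF motif. Their median fold enrichment was 6.03, against 8.66 for the other ΔCTCF/ΔMAZ peaks, and 18 of them had the smallest width the caller gave (168 bp). None had the motif (0 of 32, up to 10.7%). A masked summit was found in 12, 14 lay in introns, 10 between genes, 5 at promoters and 3 in exons, and a WT peak lay at 4. The 5 strongest were at the promoter of Aldh18a1 (fold enrichment 11.2, 22 reads), near Lhx9 (9.13, 14 reads), in a Ctcf coding exon (chr8:105675993-105676253, 8.80, 17 reads), at the promoter of Sept7 (7.83, 15 reads) and near Hsd17b6 (7.53, 11 reads). The nearest ΔMAZ summit was a median of 32561 bp away.

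Across genes, 10007 of 21951 protein-coding genes had a ΔMAZ CTCF site in the gene or within 5 kb, 1455 had a residual one and 151 had at least 2. The gene models with the most sites were Gm20388 (131 sites, 15 residual, over an annotated span of 4435 kb), Gm42416 (44 and 4), Fgfr2 (42 and 1), Gm37013 (42 and 4) and Gm37388 (40 and 4). The Fgfr2 model also has a long annotated span, of 2961 kb, and its sites were counted over all of it. Gm42416, Gm37013 and Gm37388 overlap each other across the protocadherin clusters, so they count the same stretch and its 4 residual sites repeatedly. After Gm20388 the most residual sites lay at Camta1, a transcription factor gene (7 of 27), Gm10717 (7 of 8), Ctcf (5 of 11 with its flanks), Gm10718 (5 of 5) and Gm21738 (5 of 5). Such counts depend on how many sites a model holds, and 9.72% of all sites were residual. Gm10717 and Gm10718 are neighbours whose 5 kb flanks overlap, and sites at these models and at Gm21738 are among those of high background. By chromosome the residual share ran from 7.12% on chromosome 19 to 12.5% on chromosome 11 among the autosomes. Chromosome 11 against the others had an odds ratio over the strength groups of 1.17 (0.987 to 1.38), an interval that holds 1. On the X chromosome 24 of 579 sites were residual (4.15%, 2.80 to 6.09), where sites were also weaker (median fold enrichment 9.002), and the odds ratio over the strength groups was 1.03 (0.651 to 1.64).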

How the data were processed

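Chromatin immunoprecipitation was sequenced with a CTCF antibody. The authors aligned the reads to mm10 with Bowtie2 and used SAMtools to drop PCR duplicates. Narrow peaks came from MACS at its default settings. Which control was used is not given in the sources used here. Drosophila chromatin was added as a spike-in, but the deposited peak lists are not scaled by it. The deposited columns are a score, the fold enrichment (a ratio of summit to local background), the −log10 p-value and −log10 q-value, and the summit offset. Fold enrichment is relative to each library, so values before and after auxin share no scale.

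Overlaps were computed in Python 3.11.15 and checked against bedtools 2.31.1. Summit pileup and background in whole reads were solved from fold enrichment (with MACS's pseudocount of 1) and p-value, to within 0.001. Genes came from GENCODE vM21 (basic transcript set) and sequence from GRCm38.p6. The motif matrix was grown over 8 rounds from AGGGGGC in WT windows of 101 bp without masked bases (13316 of 26394), a choice made after a first matrix from all windows had taken up a repeat. Odds ratios are Mantel-Haenszel over 10 strength groups, given as descriptions. Genes were named by rule (the 5 strongest or weakest of each class, and gene lists). The members and lists were chosen with earlier results of these data known. Motif search and overlap were tested on simulated data. Samples without a list were not analysed here. Some sites and sequences that the naming rule picked are not reported here.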

Additional observations from a re-analysis of the deposited data

How the results depend on the processing

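With 15 alternatives, 66 of 123 recomputed values stayed within the 95% interval of the reported value (for peak counts, within 1.5 times) and 57 did not. Residual sites were above lost sites in motif share in 11 of 11 settings and in RAD21 share in 9 of 9, and below them in intron share in all 9. The strongest of 5 equal strength groups had a higher residual share than the weakest in 10 of 10. The promoter share was higher at residual sites in 9 of 10 settings, the exception being equal numbers of strongest peaks.

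With reciprocal overlap of 50% the residual share was 7.48%, the lost share 92.5%, the residual share of the strongest of 5 groups 28.6%, the gained share 24.2% and the RAD21 share of lost sites 64.3%. The auxin peaks were narrower, with a median of 215 bp against 358 bp at shared sites. With gaps of up to 500 bp the weakest of 5 groups was 1.38% residual and the RAD21 share of residual sites was 95.4%. When both lists were limited to a −log10 q of 5 or more, the residual and lost shares were 10.3% and 89.7%, the gained share 0.752%, and the promoter, motif and RAD21 shares of lost sites 8.97%, 69.0% and 70.6%. With a limit of 10, 1328 auxin peaks were left, the residual and lost shares were 7.10% and 92.9%, the strongest of 5 groups was 27.2% residual, and the gained share was 0.602%. The shares of residual and lost sites were then 15.9% and 9.55% for promoters, 25.8% and 43.1% for introns and 98.03% and 80.4% for RAD21, and the motif share of lost sites was 72.4%.

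When each list was cut to its 2570 strongest peaks, the residual and lost shares were 51.4% and 48.6%, the weakest and strongest of 5 groups were 36.4% and 74.3% residual, and the gained share was 48.4%. The shares of residual and lost sites were 18.3% and 19.2% for promoters, 75.3% and 71.9% for the motif, 97.9% and 94.4% for RAD21 and 25.5% and 38.4% for introns, and the odds ratio of intronic against intergenic sites was 0.452. Over the alternatives this odds ratio lay between 0.452 and 0.567. The weakest of 5 groups was 0.307% residual without peaks of the MAZ lists in Maz knockout cells and 0.230% with strength taken from −log10 q. With promoters of 2.5 kb the shares were 20.6% and 15.2%. The motif share was 72.7% and 61.9% within 100 bp, and 34.6% and 20.6% with the strict limit. With the WT RAD21 list, RAD21 lay at 94.6% of residual sites.

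The remaining alternatives were chosen after seeing the data, as were those for intron shares. Without peaks of background over 2 reads the weakest of 5 groups was 0.135% residual and the RAD21 share of residual sites was 97.5%. With strength taken from the pileup the weakest of 5 groups was 0.0960% residual. With the full transcript set, residual and lost sites had shares of 16.98% and 12.2% for promoters and 25.5% and 41.4% for introns. A matrix from all windows gave a motif share of 55.4% and 48.8%. Scaling the untreated list to a shallower auxin library was not run: the lists carry no read totals, and the lowest local background was not lower in the auxin list. No paired analysis was possible because there was a single list on either side. Weak sites limit the comparison: the lowest called pileup was 4 reads in the untreated and 6 reads in the auxin list.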
